A study of Bos taurus with 20 samples.

Results

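Genes of cholesterol synthesis and of its control by sterol regulatory element binding proteins (SREBPs) were examined in clonal populations of bovine mesenchymal stem cells (MSCs). A list of 30 genes was taken by symbol from the table of raw counts, which names 33063 genes. Of these, 29 had a row, STARD4 was not analysed here, and 28 passed the filter on low counts and were tested. The list holds 20 enzymes of the pathway, 5 genes that sense sterols or carry the SREBP response, and genes for sterol uptake, transport, efflux and storage.

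The clones came from adipose tissue of Holstein Friesian x Aberdeen Angus calves, collected from the inguinal or perirenal region. Each was grown from 1 sorted cell in medium with serum and bFGF, part of it conditioned by MSC cultures of the same animal. Clones that made fat cells at both differentiation tests were called adipogenic (A) and clones that failed at the first test non-adipogenic (N). RNA of 10 A and 10 N clones was sequenced before any differentiation, with 1 library per clone. Animals 17 and 20 gave 1 clone of each condition, and animals 22 and 23 gave 4 of each. The A clones had been picked for a high capacity to differentiate, so they do not represent all clones that can make adipocytes. The same kind of medium served both conditions, but its conditioned part differed between animals. Clones of 1 animal share that animal, and a difference in a bulk library cannot tell fewer cells of a kind from less RNA per cell.

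The libraries held between 14908802 and 43111345 counts per N clone and between 14615493 and 29185355 per A clone. Levels are given as CPM (counts relative to library size), scaled by edgeR's TMM factors, and fold changes as log2 of A against N clones from a fit with the animal as a block. The 5 MSC markers checked (ITGB1, NT5E, CD44, PDGFRA and ENG) summed to between 2729 and 5036 CPM in N clones and between 3290 and 5309 CPM in A clones, although NT5E was at 0.508 CPM in the lowest N clone. Summed markers of mature adipocytes reached at most 122 CPM, those of macrophages 12.6 CPM and those of endothelial cells 41.3 CPM. Mesothelial markers stood apart in N clones 22-5 and 22-9, with sums of 9198 and 6512 CPM, while the other 18 clones ranged from 7.73 to 1095 CPM.

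As background, cells build cholesterol from acetyl-CoA through mevalonate, isoprenoid units, squalene and lanosterol. The transcription factors SREBF1 and SREBF2 are held in the endoplasmic reticulum by SCAP and the INSIG proteins while sterols are plentiful, and are released to activate the genes of the pathway when sterols run low. Proliferating cells need sterols and isoprenoids for new membranes and for anchoring proteins. In adipose tissue, SREBF1 is known for driving fatty acid synthesis, and cholesterol is stored at the surface of lipid droplets and inside them.

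Many genes of the pathway were lower in A than in N clones. Of the 28 genes tested, 14 were lower and 2 higher once p-values of edgeR's quasi-likelihood test were adjusted (Benjamini-Hochberg, threshold 0.05), and 12 passed in neither direction. Over all 12900 genes tested, 10.3% were lower in A clones and 10.3% were higher. A decrease of at least 2-fold was found for 9 of the 28 genes, compared with 1.81% of all genes. The fitted change was below 0 for 24 of the 28, against 51.2% of all genes. Its median was -0.80 on the log2 scale, against -0.01 over all genes. Among the 20 enzymes, all 20 had a value below 0, 11 passed the test, and the median was -0.92. These tests took each clone as a replicate, although the clones came from 4 animals. With counts summed per animal and condition, 0 of the 28 genes passed, as did 0% of all genes, while the median over the 28 was -0.77.

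For none of the 28 genes did all A clones lie below all N clones. Only 12 of all 12900 genes tested (0.093%) showed that pattern, so its absence is not particular to these genes. The map of levels by clone shows that 2 N clones, 22-9 and 23-22, carried the highest levels of most enzymes, and that A clones 20-106 and 22-27 carried many of the lowest. Clone 22-9 ranked highest of the 20 for 19 of the 20 enzymes, and clone 23-22 ranked second for 13.

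**Figure D1:**
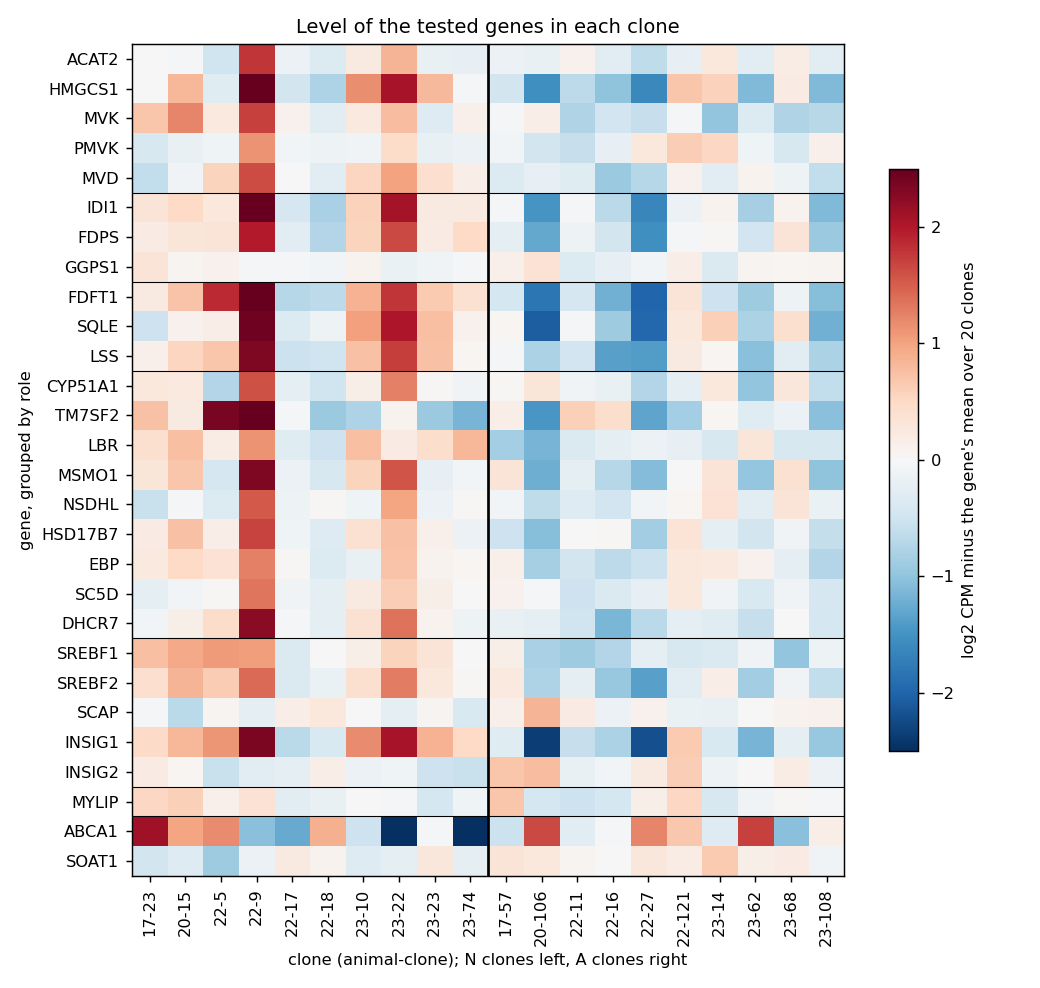
Level of each of the 28 tested genes (rows, grouped by role) in each of the 20 clones (columns; N clones left, A clones right, named by animal and clone number), as log2 CPM minus the mean of that gene over all clones, with colours limited to 2.5 in either direction. Red cells cluster in N clones 22-9 and 23-22, and the darkest blue cells lie mainly in A clones 20-106 and 22-27.

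At the entry to the pathway, 3 of 5 mevalonate genes were lower in A clones. HMGCS1, which joins acetyl-CoA and acetoacetyl-CoA, ranged from 63.7 to 696 CPM in N clones, with a median of 150 CPM, and from 36.0 to 177 CPM in A clones, with a median of 62.0 CPM. The ranges overlapped, with 5 A clones under the lowest N clone. The log2 fold change of HMGCS1 was -1.41 ± 0.470 (SE; adjusted p = 0.043).

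MVK, the kinase that phosphorylates mevalonate, ranged from 7.86 to 32.6 CPM in N clones (median 11.8) and from 4.91 to 11.1 CPM in A clones (median 6.84). All 10 A clones lay below the N median and 7 lay below every N clone. The log2 fold change was -1.01 ± 0.220 (adjusted p = 0.0059), and the A clones had the lower mean in each of the 4 animals.

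MVD, the decarboxylase that yields isopentenyl pyrophosphate, ranged from 12.6 to 60.0 CPM in N clones (median 23.8) and from 10.1 to 20.8 CPM in A clones (median 16.0). Every A clone lay below the N median, and the change was -0.73 ± 0.238 (adjusted p = 0.0382). In animal 17 the single A clone was above the single N clone. The remaining enzymes of this step did not pass the test. ACAT2, the cytosolic thiolase, had a change of -0.44 ± 0.264 (adjusted p = 0.239), and PMVK, the second kinase, of -0.07 ± 0.193 (adjusted p = 0.821). The gene of ACAT2 overlaps TCP1 in the RefSeq annotation, so its count may hold reads of both.

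Of the 3 isoprenoid enzymes, 2 were lower. IDI1, which interconverts the basic isoprene units, ranged from 11.9 to 146 CPM in N clones (median 25.6) and from 6.70 to 22.1 CPM in A clones (median 15.9). All 10 A clones fell below the N median, with a change of -1.48 ± 0.439 (adjusted p = 0.0263). FDPS, which makes farnesyl pyrophosphate, ranged from 25.0 to 165 CPM in N clones (median 51.7) and from 14.3 to 51.9 CPM in A clones (median 32.6), with a change of -1.09 ± 0.322 (adjusted p = 0.0263).

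Both of these genes precede the branch to sterols. GGPS1, which makes geranylgeranyl pyrophosphate for protein prenylation on the other side of that branch, differed little between clones of any kind. Its level ran from 22.2 to 31.3 CPM in N clones and from 19.6 to 32.2 CPM in A clones, and the change was -0.02 ± 0.0793 (adjusted p = 0.903).

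All 3 enzymes from squalene to lanosterol were lower in A clones. FDFT1, squalene synthase and the first step committed to sterols, had the largest fitted change of the list. It ranged from 22.1 to 286 CPM in N clones (median 58.6) and from 9.13 to 45.4 CPM in A clones (median 22.6). Each of the 10 A clones was below the N median, and the level was 3.68-fold lower in A clones (log2 fold change -1.88 ± 0.444, adjusted p = 0.0090).

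SQLE, the squalene epoxidase and a controlled step of the pathway, ranged from 40.1 to 312 CPM in N clones (median 63.4) and from 13.7 to 86.6 CPM in A clones (median 44.7). The ranges overlapped widely, with 7 A clones below the N median. Its change of -1.25 ± 0.433 lay just under the threshold (adjusted p = 0.05 as rounded). LSS, lanosterol synthase, ranged from 26.3 to 193 CPM in N clones (median 58.6) and from 14.4 to 44.6 CPM in A clones (median 24.6). All A clones lay below the N median, and the change was -1.36 ± 0.368 (adjusted p = 0.0177).

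**Figure D2:**
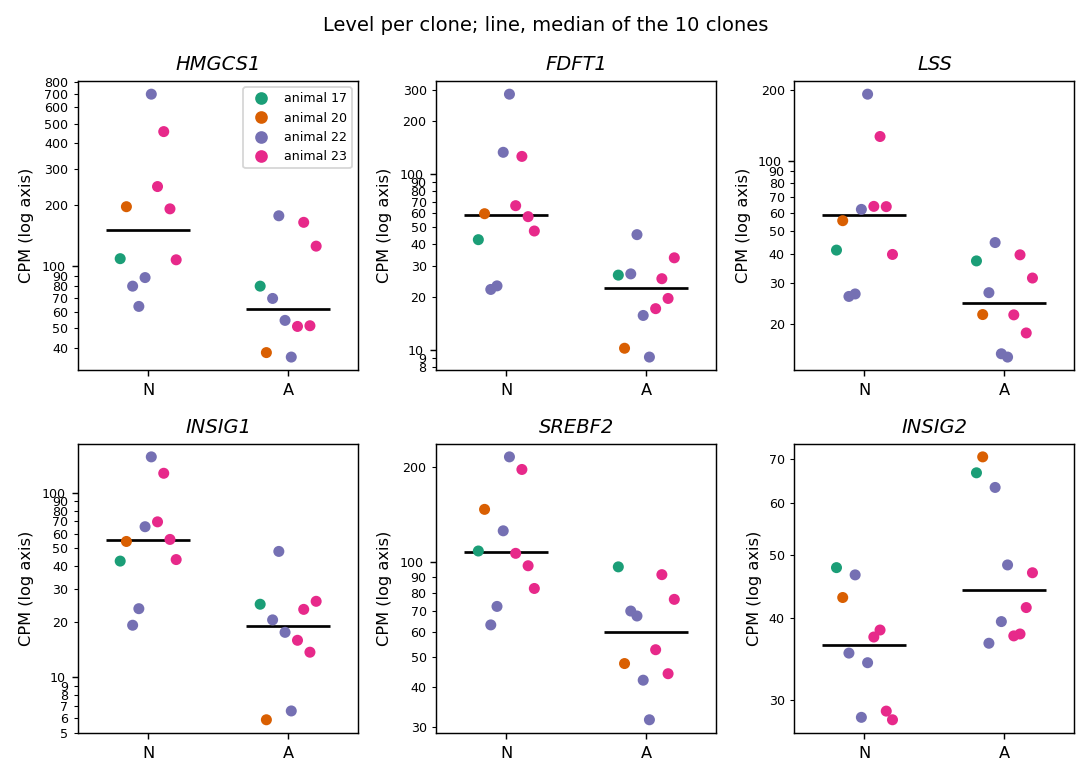
Level in each clone (CPM, log axis) of HMGCS1, FDFT1, LSS, INSIG1, SREBF2 and INSIG2 in N and A clones, with colours for the 4 animals and a line at the median of the 10 clones. For the first 5 genes most A points lie below the N median, clone 22-9 is the highest N point, and the 2 conditions overlap, whereas INSIG2 is shifted upward in A clones.

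Between lanosterol and cholesterol, 3 of 9 enzymes passed the test, all of them lower in A clones. DHCR7, which catalyses the last reduction of one route, ranged from 28.7 to 164 CPM in N clones (median 37.1) and from 15.3 to 34.1 CPM in A clones (median 26.4). There were 7 A clones below every N clone, and the change was -1.04 ± 0.314 (adjusted p = 0.0283). HSD17B7, the sterol ketoreductase, ranged from 18.1 to 73.1 CPM in N clones (median 25.8) and from 10.8 to 28.6 CPM in A clones (median 17.7), with a change of -0.78 ± 0.242 (adjusted p = 0.0323).

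LBR, a sterol reductase that also tethers chromatin to the inner nuclear membrane as the lamin B receptor, ranged from 9.09 to 28.5 CPM in N clones (median 17.5) and from 5.74 to 16.0 CPM in A clones (median 10.0). Its change was -0.83 ± 0.205 (adjusted p = 0.0111). TM7SF2 encodes an enzyme that carries out the same reduction, and its 2 highest levels were 68.0 CPM in N clone 22-9 and 17.4 CPM in N clone 22-5. Elsewhere TM7SF2 lay between 1.13 and 5.50 CPM, with medians of 3.33 CPM in N and 2.79 CPM in A clones, and its change of -1.27 ± 0.671 did not pass (adjusted p = 0.18).

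MSMO1, the sterol methyl oxidase, ranged from 43.7 to 294 CPM in N clones (median 63.9) and from 24.9 to 76.1 CPM in A clones (median 42.4). Its change of -1.06 ± 0.389 missed the threshold (adjusted p = 0.0615). The other 4 enzymes of this stretch, CYP51A1, NSDHL, EBP and SC5D, had changes between -0.58 and -0.36, with adjusted p between 0.0648 and 0.282. DESeq2's Wald test called MSMO1 and EBP in addition, which made 16 genes lower. By that test 27.3% of all genes passed in either direction, against 20.6% by edgeR.

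Among the genes that control the pathway, 3 of 5 were lower and 1 was higher. SREBF1 ranged from 68.9 to 184 CPM in N clones (median 120) and from 44.2 to 97.5 CPM in A clones (median 67.9). It had 6 A clones below every N clone, and its change was -0.92 ± 0.196, with an adjusted p of 0.0052, below that of any other gene of the list. SREBF2, the factor most tied to cholesterol genes, ranged from 63.2 to 216 CPM in N clones (median 108) and from 31.6 to 96.6 CPM in A clones (median 60.1), with a change of -0.999 ± 0.254 (adjusted p = 0.0129). For both, every A clone was below the N median and the A mean was lower in all 4 animals. SREBF1 overlaps RAI1 and MIR33B, and SREBF2 overlaps MIR33A, in the RefSeq annotation.

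The INSIG genes, whose proteins retain SCAP and are partly redundant, went in opposite directions. INSIG1, itself a target of SREBPs, ranged from 19.1 to 156 CPM in N clones (median 55.1) and from 5.88 to 48.1 CPM in A clones (median 19.0). All 10 A clones were below the N median, and the level was 3.38-fold lower (log2 fold change -1.76 ± 0.415, adjusted p = 0.0090). INSIG2 ranged from 28.0 to 47.8 CPM in N clones (median 36.4) and from 36.6 to 70.6 CPM in A clones (median 44.3), with 4 A clones above every N clone. Its change was 0.39 ± 0.113 (adjusted p = 0.0228), and A clones were higher in all 4 animals.

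SCAP, the escort of the SREBPs, ranged from 53.3 to 102 CPM in N clones (median 82.9) and from 74.8 to 154 CPM in A clones (median 90.9). The highest A value belonged to clone 20-106, and the change was 0.19 ± 0.135 (adjusted p = 0.321).

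Genes for the fate of sterols showed no common direction. SOAT1, which esterifies cholesterol for storage, ranged from 23.3 to 52.6 CPM in N clones (median 36.6) and from 40.7 to 68.5 CPM in A clones (median 49.6). No A clone lay below the N median, and the change was 0.39 ± 0.134 (adjusted p = 0.0483). ABCA1, the cholesterol exporter, varied widely in both conditions. It ran from 3.22 CPM in clone 23-22 to 109 CPM in clone 17-23 among N clones, and from 12.0 to 81.6 CPM among A clones.

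The log2 level of ABCA1 in A minus that in N was -2.66 in animal 17, whereas in animal 23 the mean difference was 1.64. Its overall change of 0.55 ± 0.549 did not pass the test (adjusted p = 0.49). MYLIP, a ubiquitin ligase that degrades lipoprotein receptors, ranged from 4.08 to 8.53 CPM in N clones (median 5.49) and from 3.90 to 9.06 CPM in A clones (median 5.33), with a change of -0.09 ± 0.163 (adjusted p = 0.707). ABCG1, another exporter, had counts in A clone 23-62 alone, where its level was 0.061 CPM, and it was left out by the filter. Counts of 0 in the other clones allow up to 3 counts each, from counting error alone.

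**Figure D3:**
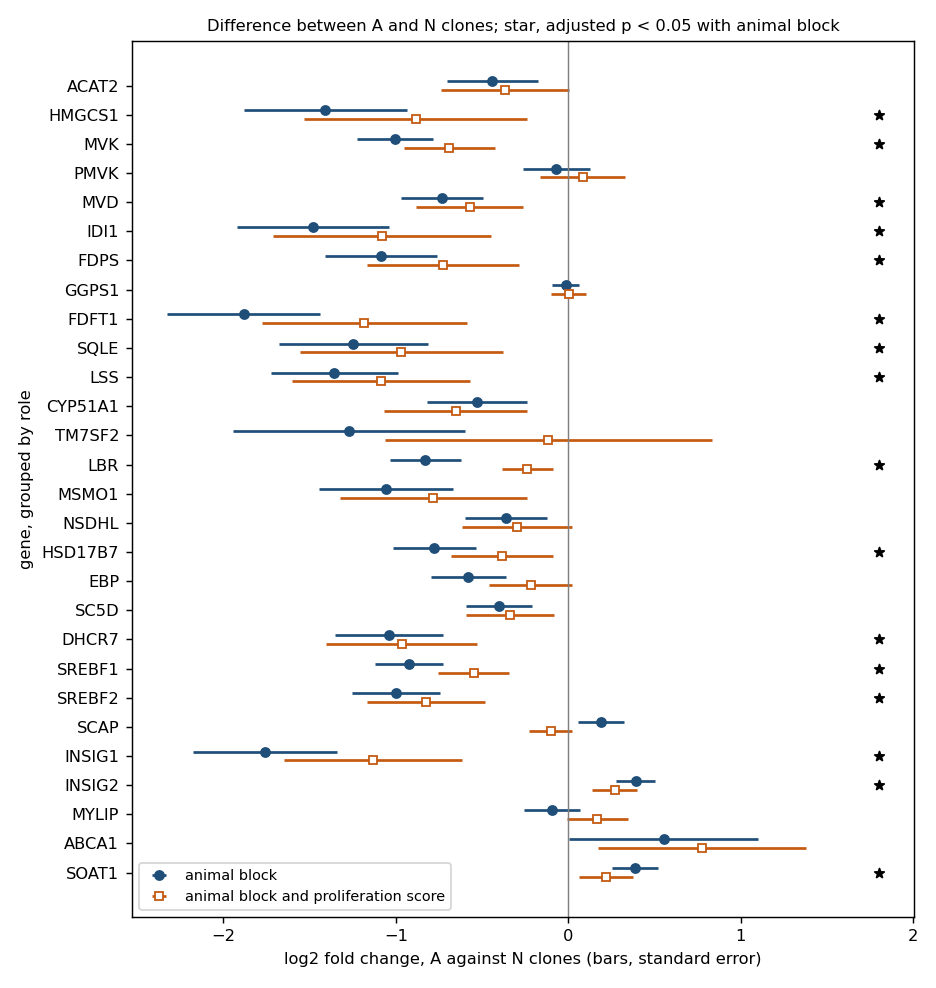
Log2 fold change of A against N clones for the 28 tested genes, with bars for the standard error, from the fit with the animal as a block (filled circles) and from the fit that also held the proliferation score (open squares). Stars mark the 16 genes with an adjusted p under 0.05 in the first fit; most open squares lie nearer to 0 and have longer bars.

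The number of genes called depended on single clones and on whole animals. Without animal 23, 0 of the 28 genes were lower and 0 higher, where 0.245% of all genes passed. Without animal 22, 7 were lower and 0 higher, where 11.5% of all genes passed. In the 20 fits that each left out 1 clone, MVK, FDFT1, LSS, LBR, SREBF1, SREBF2, INSIG1 and INSIG2 passed every time, and between 7 and 16 genes were lower. Of all genes, between 15.3% and 24.1% passed in either direction, against 20.6% with the 20 clones. The count of lower genes moved by over 1.5 times without N clone 22-9, which left 8, without N clone 23-22, which left 7, and without A clone 22-27, which left 9. There the share of all genes that passed was 15.3%, 16.6% and 16.2%. HMGCS1 did not pass in 12 of the 20 fits, MVD in 10, SQLE in 13, SOAT1 in 16, HSD17B7 in 5, DHCR7 in 3, and IDI1 and FDPS in 2 each. Without 22-9 the change of HMGCS1 was -0.84, that of IDI1 -0.92 and that of SQLE -0.81.

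When 22-9 and 23-22 were both left out, a choice made after their levels were seen, 7 genes were lower and 1 was higher, while 10.7% of all genes passed in either direction. All 16 genes called with the 20 clones kept their sign, and 8 of them still passed: MVK, FDFT1, LBR, DHCR7, SREBF1, SREBF2, INSIG1 and INSIG2. Only 2 genes, FDFT1 and INSIG1, were then lower by at least 2-fold, with changes of -1.35 and -1.27. The median over the 28 genes was -0.45.

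Mesothelial markers moved with part of this pattern. Of 7 markers, 6 were tested and 1 (MSLN) was lower in A clones, the sum of the list ran from 8.82 to 9198 CPM in N and from 7.73 to 1095 CPM in A clones, and KRT8, KRT18, KRT19, LRRN4 and WT1 were at 0 in at least 1 clone of each condition. Clone 22-5, with the highest sum, ranked 6 of 20 for the enzymes, and clone 23-22, with a sum of 276 CPM, ranked 2. Without clones 22-5 and 22-9, a choice also made after seeing the data, 5 genes were lower (MVK, LBR, DHCR7, SREBF1 and SREBF2), 0 were higher and 0 were lower by at least 2-fold, while 14.2% of all genes passed in either direction. At an unadjusted p under 0.05 edgeR gave 12 lower genes in that setting, where the share of all genes at that level was not computed. DESeq2 was not run in that setting. Of the other marker lists, smooth muscle and pericyte genes summed to between 126 and 6136 CPM in N clones and between 767 and 8696 CPM in A clones, with MYH11 and NOTCH3 higher among 5 tested, and PLIN1 of the adipocyte and CD68 of the macrophage markers were higher at no more than 6.74 CPM. The part of such cells in the result was not tested.

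In both animals with several clones the mean levels of FDFT1 and INSIG1 were lower in A clones, and the size of the differences could not be shown to differ between the animals. The mean log2 level of FDFT1 in A minus that in N clones was -1.69 in animal 22 and -1.57 in animal 23, and for INSIG1 the differences were -1.33 and -1.83. For these 2 genes, the high levels in animal 22 were those of N clones 22-5 and 22-9, which also had high mesothelial markers. FDFT1 was at 133 and 286 CPM in them, but at 22.1 and 23.2 CPM in N clones 22-17 and 22-18, within the range of 9.13 to 45.4 CPM of the 4 A clones. INSIG1 was likewise at 65.4 and 156 CPM in the first pair and at 19.1 and 23.5 CPM in the second, against 6.57 to 48.1 CPM in A clones. TM7SF2 showed this pair as well, at 68.0 CPM in 22-9 and 17.4 CPM in 22-5. Some other genes did not. HMGCS1 was at 696 CPM in 22-9 but at 88.1 CPM in 22-5, near the 80.0 CPM of 22-17. Clone 22-5 was the lowest N clone for ACAT2, CYP51A1 and MSMO1, and ranked second of the 20 clones for 2 enzymes.

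In edgeR's fit of animal 23 alone, FDFT1 and INSIG1 passed (6.22% of all genes passed in either direction) and 15 genes were lower at an unadjusted p under 0.05. The fit of animal 22 alone gave 0 lower genes past the threshold (1.15% of all genes passed) and 7 at that level, and DESeq2 was not run on single animals. For neither animal was the share of all genes lower at that unadjusted level computed. The interaction of condition and animal gave 0 of 28 genes by edgeR and 0 by DESeq2 (0.031% of all genes by edgeR). At an unadjusted p under 0.05 it gave 1 gene by either tool, TM7SF2 (p = 0.0235), against 9.06% of all genes. The standard errors of the interaction, between 0.179 and 1.24, leave room for sizeable differences.

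Animals 17 and 20 each contributed 1 pair of clones, and they differed in extent. In animal 20 the log2 level of the A clone minus that of the N clone was -2.53 for FDFT1, -3.19 for INSIG1 and -2.37 for HMGCS1. In animal 17 the same differences were -0.67, -0.77 and -0.45, and 6 of the 20 enzymes were higher in the A clone: PMVK, MVD, SQLE, MSMO1, NSDHL and SC5D. With 1 clone per condition these pairs carry no estimate of spread.

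Clones can grow at different rates, so the genes were also set against a measure of proliferation. A proliferation score was computed for each clone as the mean over 35 genes of DNA replication (16) and mitosis (19) of log2 CPM, each gene centred over the 20 clones. None of the 28 genes is in the score. It averaged 0.479 ± 0.620 in N clones and -0.479 ± 0.867 in A clones (SD, n = 10 each; exact permutation test within animals, two-sided, p = 0.0147). Within animals, score and condition correlated at -0.618 over the 20 clones, so they share 38.1% of their variance and cannot be fully told apart.

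The order of the clones by the level of the pathway followed their order by score only in part, and no correlation of the 2 orders was computed. Clone 22-11 ranked 14 on both, and clone 22-121 ranked 7 in proliferation and 8 for the enzymes. For clone 23-23 these ranks were 8 and 7, and for clone 20-15 they were 5 and 4. Other clones differed more. The median of the 20 enzymes, each as log2 CPM minus its mean, was highest in N clone 22-9 at 1.75, and this clone ranked 3 in proliferation. Clone 23-22 came next at 0.995 and ranked 10 in proliferation. The clone with the highest score, N clone 23-74, ranked 10 for the enzymes, and N clone 22-5, with the second highest score, ranked 6.

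Among A clones, clone 23-62 ranked 4 in proliferation and 16 for the enzymes. Clone 20-106 was lowest on both, with a score of -2.36 and an enzyme median of -0.81, and it had the lowest level of 7 enzymes. Clone 22-27 had the lowest level of 6 enzymes and ranked 12 in proliferation.

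**Figure D4:**
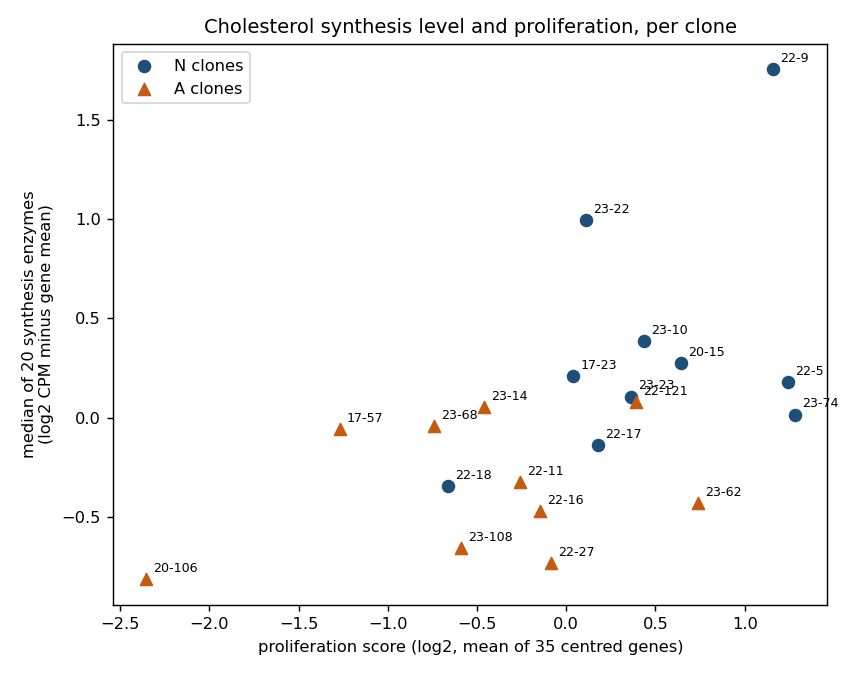
Median over the 20 synthesis enzymes (log2 CPM minus the gene's mean over all clones) against the proliferation score (mean log2 level of 35 centred replication and mitosis genes) in each clone, with N clones as circles and A clones as triangles. Clone 22-9 lies at 1.75 on the vertical axis, clones 22-5 and 23-74 have similar scores but lie near 0, and A clone 20-106 is lowest on both axes.

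With the score in the fit, no call between A and N clones was left among the 28 genes, while the standard errors grew. By edgeR 0 passed the threshold and 5 were lower at an unadjusted p under 0.05, and by DESeq2 0 passed and 8 were lower at that level. Of all genes tested, 4.96% passed with the score in the fit, and 10.6% were lower at an unadjusted p under 0.05. The 5 genes were MVK, DHCR7, SREBF1, SREBF2 and INSIG1.

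The sign was the same with and without the score for 24 of the 28, 21 of the 24 genes below 0 stayed below 0, and the median change moved from -0.80 to -0.47. With the score 22 of the 28 were below 0, against 50.5% of all genes. The largest remaining changes were those of FDFT1 (-1.18 ± 0.593) and INSIG1 (-1.13 ± 0.518). SREBF2 moved from -0.999 to -0.82 ± 0.342 and DHCR7 from -1.04 to -0.96 ± 0.438, while LBR moved from -0.83 to -0.24 ± 0.148. Standard errors of the 28 genes were larger by a median factor of 1.32, compared with 1.24 over all genes.

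The slope of the score, fitted with animal and condition in the model, passed the test for 2 genes. LBR rose by 0.59 ± 0.0969 in log2 per unit of score (adjusted p = 0.0011) and was the only gene of the list with a positive slope past the threshold, against 2.64% of the genes outside the score. SCAP had a slope of -0.32 ± 0.0805 (adjusted p = 0.0328), against 1.41% of genes with a negative slope past the threshold. It no longer passed when any of clones 20-15, 20-106, 22-9, 22-17, 22-18 or 22-121 was left out, and the slope was -0.17 without 20-106 and -0.17 without 20-15.

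Of the other enzymes, none had a slope past the threshold. The slope was positive for 24 of the 28 genes with a median of 0.26, against 50.9% of all genes and a median of 0.0043. For FDFT1 the slope was 0.63 ± 0.397, for HMGCS1 0.50 ± 0.451 and for SREBF2 0.17 ± 0.225. Without animal 22 the median turned to -0.13. SREBF1, EBP and MYLIP had positive slopes at an unadjusted p under 0.05 only (adjusted p between 0.119 and 0.198).

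Beside these genes, a list of 35 further genes of sterol sensing, isoprenoid use, sterol handling and oxysterols was examined. Of these, 6 were higher in A clones, 29 passed in neither direction, and the median change was 0.12. Over all genes tested, 10.3% were higher and 10.3% lower. Genes that process SREBPs or take part in the degradation of sterol enzymes, such as MBTPS1 and MBTPS2, the proteases that release the SREBPs, had changes between -0.06 and 0.31 and did not pass.

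DHDDS, which starts the branch to dolichol used in protein glycosylation, ranged from 21.0 to 36.4 CPM in N clones (median 29.7) and from 33.4 to 55.8 CPM in A clones (median 49.2). There were 9 A clones above every N clone, and the change was 0.65 ± 0.0669 (adjusted p = 5.05e-05). The other genes of non-sterol isoprenoids lay between -0.12 and 0.15 and did not pass.

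NPC2, which hands cholesterol on in lysosomes, ranged from 142 to 736 CPM in N clones (median 352) and from 496 to 1554 CPM in A clones (median 1130), again with 9 A clones above every N clone (change 1.45 ± 0.253, adjusted p = 0.0018). Among genes of oxysterols and liver X receptors, CH25H, an oxysterol-forming hydroxylase, ran from 0 to 14.2 CPM in N clones (median 0.892) and from 0.343 to 80.0 CPM in A clones (median 15.5), with a fitted change of 3.53 ± 0.907 (adjusted p = 0.0138). CYP7B1, which hydroxylates oxysterols further, was higher by 1.34 ± 0.405 (adjusted p = 0.0284), and the liver X receptor gene NR1H3 by 0.42 ± 0.136 (adjusted p = 0.0366). On leaving out each clone, NR1H3 did not pass in 11 of 20 fits and CYP7B1 in 2, with changes down to 0.34 and 1.16.

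APOE, a lipoprotein component and known target of liver X receptors, ranged from 5.60 to 48.3 CPM in N clones (median 24.5) and from 19.4 to 151 CPM in A clones (median 93.1). Its change was 1.93 ± 0.408 (adjusted p = 0.0051), with 9 A clones higher than the highest N clone. Of other known targets of these receptors, SREBF1 was lower in A clones (change -0.92, adjusted p = 0.0052). MYLIP (change -0.09, adjusted p = 0.707) and ABCA1 (change 0.55 ± 0.549, adjusted p = 0.49) did not pass the test, and ABCG1 was not tested. The targets of these receptors were not tested as a set.

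Genes of fatty acid synthesis that SREBPs are known to activate were lower in A clones, with 5 of 9 past the threshold and 0 higher. Over all genes tested, 10.3% were lower and 10.3% higher. SCD, the desaturase that makes oleate, ranged from 48.2 to 819 CPM in N clones (median 253) and from 28.4 to 119 CPM in A clones (median 62.1), a change of -2.30 ± 0.458 (adjusted p = 0.0038). FADS2 and FADS1, desaturases of polyunsaturated fatty acids, changed by -1.92 ± 0.434 (adjusted p = 0.0072) and -1.64 ± 0.426 (adjusted p = 0.0144). ACSS2, which makes acetyl-CoA from acetate, changed by -1.62 ± 0.497 (adjusted p = 0.0308) and FASN, the fatty acid synthase, by -0.81 ± 0.267 (adjusted p = 0.0398). In the fits that each left out 1 clone, SCD, FADS1 and FADS2 passed every time, whereas FASN did not pass in 13 of 20 and ACSS2 in 6. The count fell to 3 without N clone 23-22 or without A clone 22-11, 22-16 or 22-27. It was 2 without animal 22, and 0 without animal 23, where 0.245% of all genes passed. ACLY, ACACA, ELOVL6 and ACSL3 lay between -0.56 and 0.03 and did not pass. Given the proliferation score, 3 of the 35 sterol genes and 0 of the 9 fatty acid genes passed in edgeR's test, against 4.96% of all genes. At an unadjusted p under 0.05, 2 fatty acid genes were lower, against 10.6% of all genes. DESeq2 counts were not computed for these lists.

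**Figure D5:**
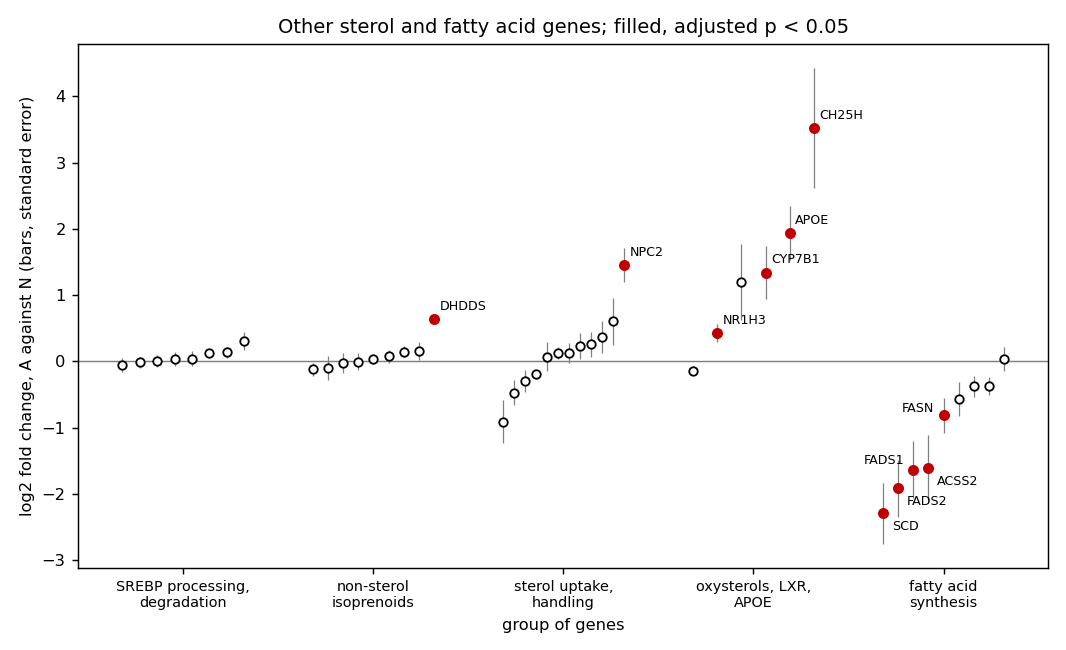
Log2 fold change of A against N clones, with bars for the standard error, for 35 further sterol genes in 4 groups and 9 fatty acid synthesis genes. Filled points passed an adjusted p under 0.05 and are named: 5 fatty acid genes lie below 0, and 6 sterol genes lie above 0, led by CH25H at 3.53.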

How the data were processed

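Per the labels and the methods of the study, RNA libraries from a directional kit were sequenced in pairs of reads, demultiplexed with bcl2fastq 2.20, trimmed with Trimmomatic 0.36 and mapped with STAR 2.5.2b to ARS-UCD1.2. Unique reads within exons were counted with featureCounts of Subread 1.5.2. The table the authors deposited gives raw counts for each gene in each clone. The strand setting is not given in the sources used here, so counts of overlapping genes are uncertain. The study names an Ensembl reference while the table holds NCBI symbols, so genes are named as in the table. Of 33064 rows, 1 has no name. It held 0.113% to 0.333% of a clone's counts and was left out. Columns outside the series numbered 0.

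From these counts, edgeR 4.0.16 in R 4.3.3 was run with TMM normalization, its default expression filter on the condition, a robust quasi-likelihood fit and Benjamini-Hochberg adjustment over all 12900 genes, with the animal as a block. Genes were called at an adjusted p under 0.05. The proliferation score was added as a covariate in a second fit, and the interaction was fitted on the 16 clones of animals 22 and 23. For log2 CPM a prior count of 2 was added. Standard errors were taken from the fold change and its F statistic. The score was compared between conditions over 19600 arrangements of labels within animals. DESeq2 1.42.0 was an alternative. The scripts were tested on simulated data.

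The pairing of A and N clones comes from the animals, and deviations from group means correlated at 0.253, 0.193, 0.241 and 0.440 between the conditions in animals 17, 20, 22 and 23. The members and lists were chosen with earlier results of these data known. All members are accounted for. Values are given for those called, for SREBF1 and SREBF2, and for the pair with the largest change in each role, and of the further lists for those called. Some genes of the further sterol list are not reported here. No promoter or protein sequence was used here, and no coordinates are given, since the RefSeq table used for overlaps, which matched all 29 genes by symbol, is of another build (ARS-UCD2.0).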

Additional observations from a re-analysis of the deposited data

Results flagged for a closer look

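For 2 genes, 1 clone lay far from the other 9 of its condition by Dixon's criterion. HSD17B7 in N clones was highest in clone 22-9 at 73.1 CPM, with the next clone at 37.6 CPM, and the gap made up 0.476 of the range of log2 levels. SCAP in A clones was highest in clone 20-106 at 154 CPM, and the gap made up 0.628 of the range. Over the 60 groups tested, about 3 would be expected by chance.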

How the results depend on the processing

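Of the 16 genes called between A and N clones, none changed sign under any setting, and the median over the 28 genes stayed between -0.94 and -0.45. Lower genes numbered 13 without the replicate block, 13 with DESeq2 size factors, 12 without a filter, 14 with at least 10 counts in every clone, 16 by DESeq2's Wald test, 14 without robust dispersion, 14 without animal 17 and 11 without animal 20. In the same order, 16.8%, 20.5%, 11.8%, 21.1%, 27.3%, 20.8%, 18.2% and 18.9% of all genes passed in either direction. Without the block the higher genes were 1 and those lower by at least 2-fold 8. SQLE (adjusted p = 0.0545) and INSIG2 (adjusted p = 0.058) then missed the threshold, and no other call changed.

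Higher genes were 1 without a filter, without animal 17, without animal 20 and without N clones 22-9 and 23-22. Lower, higher and 2-fold lower genes were 7, 0 and 4 without animal 22; 0, 0 and 0 without animal 23 (14 lower at an unadjusted p under 0.05; 0.245% of all genes passed), in animal 22 alone (1.15% of all genes) and with counts summed per animal and condition (13 at that level; 0% of all genes); 2, 0 and 2 in animal 23 alone; 7, 1 and 2 without 22-9 and 23-22; and 5, 0 and 0 without 22-5 and 22-9. Of all genes, 11.5% passed without animal 22, 6.22% in animal 23 alone, 10.7% without 22-9 and 23-22 and 14.2% without 22-5 and 22-9. For the counts at an unadjusted p, the share of all genes at that level was not computed. Leaving out each clone gave 7 to 16 lower, 1 to 2 higher and 2 to 11 at least 2-fold lower. The cause of these changes was not tested.

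Genes near 0 changed sign. GGPS1 was 0.0034 without animal 17, 0.032 without animal 22, 0.020 in sums, 0.023 in animal 23 alone, 0.011 without 22-5 and 22-9, and -0.050 to 0.016 on leaving out each clone. PMVK was 0.034, 0.033, 0.16 and 0.082 without animal 22, in animal 23 alone, and without the first and the second pair of N clones (range -0.14 to 0.091). MYLIP was 0.0087 without animal 20 and 0.023 in animal 23 alone (range -0.18 to 0.0088). ABCA1 was -0.15 without animal 23 and -0.0061 in sums, SCAP -0.074 in animal 22 alone, TM7SF2 0.32 in animal 23 alone and 0.0068 without 22-5 and 22-9, and ACAT2 0.015 and NSDHL 0.024 without 22-9 and 23-22.

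Given proliferation, 1 gene (SREBF1) passed with a score over replication genes alone and 0 in the other settings. That score's difference was -0.61 (exact permutation p = 0.0576), against -1.25 for mitosis genes alone (p = 0.00724). Genes with a positive slope past the threshold were 0 without animal 23, and those with a negative slope were 0 without animals 20, 22 or 23, with mitosis genes alone and without 22-9 and 23-22 (0 to 1 on leaving out each clone). Without animal 22 slopes turned negative for HMGCS1 (-0.34), MVD (-0.16), IDI1 (-0.28), FDPS (-0.13), FDFT1 (-0.11), SQLE (-0.30), LSS (-0.43), DHCR7 (-0.39), SREBF2 (-0.17) and INSIG1 (-0.12), and for the median (-0.13). On leaving out each clone, slopes ranged from -0.18 to 0.27 for DHCR7, from -0.011 to 0.59 for IDI1 and from -0.055 to 0.46 for LSS, and DHCR7 had -0.0016 without 22-9 and 23-22. The depth allowed at least 19 counts in every clone for each of the 28 genes.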
